A study of Mus musculus with 20 samples.

Results

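Microglia and astrocytes sorted from the same region of sham-operated mice were compared across all genes, to give the baseline division of receptors, transporters, metabolic enzymes, transcription factors and secreted factors between these glial cells. The comparison used the 5 libraries titled sham microglia and the 5 titled sham astrocytes, 10 of the 20 libraries of the series, and they were chosen by their titles and cell type labels alone. The other 10 libraries came from mice given lateral fluid percussion injury (FPI), a model of traumatic brain injury. They are used here to ask whether a difference recurred in other mice or differed after FPI, and in an alternative fit of all 20 libraries. All mice were adult male C57BL/6J animals, 3 to 4 months old. The sham mice had the surgery without the fluid pulse, and the left forebrain, the side of the surgery, was taken 7 days later, dissociated with papain and sorted by flow cytometry. Microglia were gated on CD11b and intermediate CD45 and astrocytes on ACSA-2, an epitope of the sodium pump subunit Atp1b2, so Itgam (CD11b), Ptprc (CD45) and Atp1b2 serve only as checks. By the numbers in the library names, 2 sham mice gave a library of each cell type (microglia 2 with astrocytes 4, and microglia 3 with astrocytes 5), and the rest came from different mice.

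Microglia are the resident macrophages of the brain. They arise from yolk sac progenitors, depend on signalling through Csf1r, survey the tissue with motile processes and clear debris and pathogens. Astrocytes arise from neural progenitors, contact synapses and vessels, take up glutamate, GABA and potassium, supply glutamine and lipids, and secrete factors that shape synapses. A large part of all genes differed between them, so a list's count is to be read against the share of all genes that passed the same test.

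Levels are CPM, counts relative to the library total after TMM scaling, given as mean ± SD with n = 5 per cell type, and log2 fold changes are microglia minus astrocytes ± SE from the edgeR quasi-likelihood fit. A gene was called where its Benjamini-Hochberg adjusted p was under 0.1 and its log2 fold change lay beyond 0.6 either way. It was apart by over 8-fold where these were under 0.01 and beyond 3. A gene described as higher or lower passed the first rule. Where a group held no count in any library, the fold is a bound set by 3 counts over the group (0.0688 CPM in microglia and 0.0638 CPM in astrocytes). Bounds and ratios use the counts of the 5 libraries summed and divided by their summed library size, so they differ slightly from those of the mean CPM. Where it held 1 to 3 counts the ratio is given with its 95% counting interval, which covers counting error only. Libraries held 5623349 to 13110857 gene counts in microglia (median 8188128) and 7998479 to 10917112 in astrocytes (median 9300923).

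The marker genes followed the labels. Tmem119 measured 1203, 1131, 1113, 1070 and 1110 CPM in the 5 microglia libraries and 0.206 to 1.60 CPM in the astrocytes, and Cx3cr1 averaged 3990 ± 535 against 0.746 ± 0.560. Aqp4 measured 1394, 1127, 1097, 439 and 571 CPM in the astrocytes and 4.18 to 10.9 CPM in the microglia, and Aldh1l1 averaged 304 ± 114 against 2.26 ± 1.53. The sort antigens followed the gates: Itgam stood at 1667 ± 84.2 against 0.540 ± 0.791 CPM, Ptprc at 435 ± 46.4 against 0.354 ± 0.329, and Atp1b2 at 12 ± 6.28 against 1795 ± 876. The 10 astrocyte markers summed in microglia to 1.47% of their level in astrocytes, and the 10 microglia markers in astrocytes to 0.512% of their level in microglia.

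The astrocyte libraries also held RNA of other cell types. The 10 oligodendrocyte markers, all called higher in the astrocyte libraries, summed to 8410, 3398, 1760, 18782 and 8307 CPM in astrocyte libraries 1 to 5, against 142 to 202 CPM in microglia, and in library 4 that sum exceeded the sum of the astrocyte markers (10018 CPM). The 6 mural cell markers, also all called, summed to 1052, 2759, 1954, 2954 and 5652 CPM, against 19.9 to 44.9 CPM in microglia. Endothelial markers (7 of 8 tested called, 30.6 to 568 CPM), oligodendrocyte precursor markers (6 of 6, 302 to 748 CPM) and ependymal markers (4 of 4, 38.8 to 122 CPM) were higher in the astrocyte libraries as well. Neuron markers (4 of 6) summed there to no more than 49.8 CPM. A gene higher in the astrocyte libraries can therefore be one of these cells, and their part in the results was not tested. Microglia libraries 1 to 3 held border macrophage markers (2 of 7 tested, both called higher in microglia) at 481, 313 and 469 CPM, and libraries 4 and 5 at 25.2 and 18.9 CPM. The names of libraries 4 and 5 come from another series and carry the letter A, as the astrocyte names do, although their Tmem119 levels above were microglial. Monocyte and neutrophil markers (1 of 6 tested, called higher in microglia) summed to 20.8, 8.28, 19.2, 3.95 and 5.64 CPM in microglia libraries 1 to 5. Lymphocyte markers were at or near 0 in every library. In bulk RNA, fewer cells of a type and less RNA per cell cannot be told apart.

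**Figure D1:**
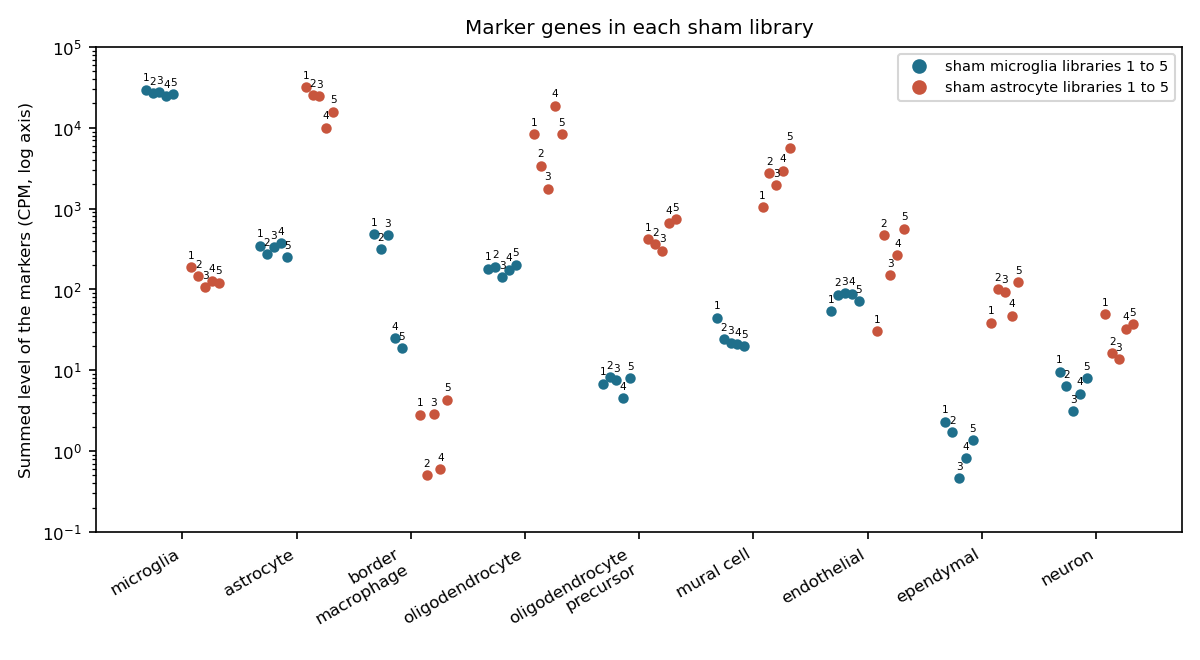
Summed level of each marker list (CPM, log axis) in the 10 sham libraries, with microglia libraries in blue and astrocyte libraries in red, each point numbered by its library. The oligodendrocyte sum runs from 1760 to 18782 CPM among the astrocyte libraries and is highest in library 4, where the astrocyte sum is lowest, and the border macrophage sum is 313 to 481 CPM in microglia libraries 1 to 3 and at most 25.2 CPM in the other libraries.

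Of 13659 genes tested, 8475 were called (62%), 3844 of them higher in microglia (28.1%) and 4631 higher in astrocytes (33.9%). The larger differences leaned to the astrocytes: 2276 genes were over 8-fold higher in astrocytes (16.7%) and 938 in microglia (6.87%). The 5 microglia values lay wholly above or below the 5 astrocyte values in 7356 genes (53.9%). Without astrocyte library 4 the over 8-fold counts were 2363 and 1013, and without microglia libraries 1 to 3, an alternative added after the marker sums had been seen, they were 2378 and 993. The 95% interval of the log2 fold change lay inside 0.6 either way in 1207 genes (8.84%). The median log2 fold change over all genes was -0.04, and DESeq2's size factors and edgeR's RLE factors each moved it by -0.11, so a difference near 0.6 depends on the scaling. The biological coefficient of variation was 0.219 within microglia and 0.344 within astrocytes.

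The libraries also differed as wholes. Astrocyte libraries had 13910 ± 193 genes at 1 CPM or more and microglia libraries 12482 ± 207 (exact permutation p = 0.00794, adjusted 0.0106). Mitochondrially encoded genes took 12.4 ± 1.52% of counts in astrocytes and 5.01 ± 0.480% in microglia, and ribosomal protein genes 0.360 ± 0.0541% and 0.936 ± 0.0240% (exact permutation p = 0.00794 each, the smallest that 5 against 5 libraries allow). The 100 genes of most counts took 43.7 ± 2.67% in astrocytes and 38.4 ± 3.60% in microglia (exact permutation p = 0.0397).

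Receptors divided by what they bind. Of 35 tested pattern-recognition and phagocytic receptors 30 were higher in microglia and 1 in astrocytes, and of 34 receptors for cytokines, chemokines and complement 28 were higher in microglia and 6 in astrocytes, where all genes gave 28.1% and 33.9%. Neurotransmitter receptors went the other way, with 23 of 27 higher in astrocytes and 3 in microglia, as did receptors for Wnt, Notch, Hedgehog, BMP and related developmental signals, with 32 of 42 higher in astrocytes and 4 in microglia. Growth factor receptors were mixed, 12 of 43 higher in microglia (27.9%, near the share of all genes) and 24 in astrocytes (55.8%).

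**Figure D2:**
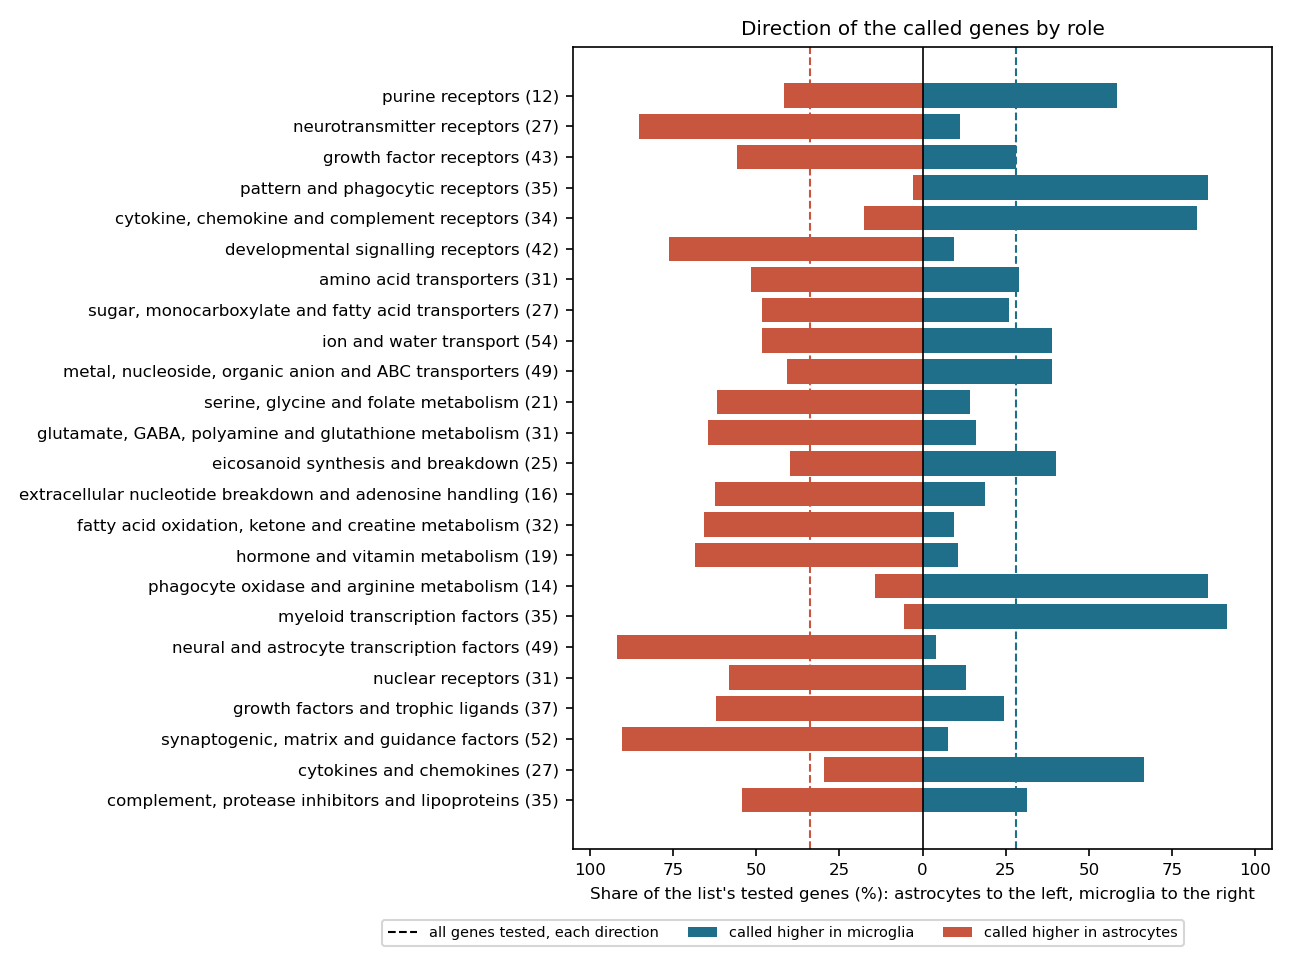
Share of each list's tested genes called higher in astrocytes (red, to the left) and in microglia (blue, to the right), in percent, with the number of tested genes in brackets. The dashed lines mark the shares over all 13659 genes tested, 33.9% and 28.1%: pattern and phagocytic receptors and myeloid transcription factors extend far to the right, neural transcription factors and synaptogenic factors far to the left.

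Receptors for purines, through which microglia sense released ATP and adenosine, were divided member by member. P2ry12, the ADP receptor that steers microglial processes, measured 2205, 1938, 2002, 1561 and 1517 CPM in microglia and 4.03, 2.1, 1.14, 1.70 and 2.98 CPM in astrocytes (log2 fold change 9.61 ± 0.36, adjusted p = 1.09e-09). P2ry13, another ADP receptor, stood at 707 ± 112 against 0.124 ± 0.278 CPM, and P2ry6, a UDP receptor linked to phagocytosis, at 129.5 CPM against 2 counts in all 5 astrocyte libraries, a ratio of 3058 (846 to 25253). The ATP-gated channel P2rx7 was higher in microglia by less, at 255, 262, 261, 252 and 267 CPM against 16.0 to 46.8 CPM (3.07 ± 0.26). P2rx4 was higher by less again (1.36 ± 0.16). None of these groups overlapped.

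Adenosine receptors split by subtype. Adora3, which couples to Gi, was found at 54.3 to 74.8 CPM in microglia, with 2 counts over the astrocytes. Adora1, also Gi-coupled, measured 101, 54.4, 76.5, 83.2 and 57.4 CPM in astrocytes and 0.900 to 3.72 CPM in microglia (-4.91 ± 0.33). Adora2b, a low-affinity Gs-coupled receptor, measured 30.1, 26.8, 22.0, 6.91 and 13.8 CPM against 1 count in all microglia libraries. P2ry14, a receptor for UDP-sugars, averaged 37.2 ± 19.5 CPM in astrocytes and 0.245 ± 0.286 in microglia. Its astrocyte values, 10.1, 35.9, 35.1, 40.2 and 65 CPM, were lowest in library 1 and highest in library 5, as was the mural cell marker sum, an order found in 248 of the 2276 genes over 8-fold higher in astrocytes (10.9%). Over the list, 7 of the 12 tested purine receptors were higher in microglia (58.3%) and 5 in astrocytes (41.7%), with none left uncalled. All genes gave 28.1% and 33.9%.

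Among neurotransmitter receptors the astrocyte side held glutamate and GABA receptors and alpha adrenergic receptors. Grm3, an inhibitory metabotropic glutamate receptor, measured 674, 544, 531, 462 and 406 CPM in astrocytes and 2.98 to 6.28 CPM in microglia (-7.00 ± 0.26, adjusted p = 9.72e-10). The NMDA receptor subunit Grin2c averaged 362 ± 138 against 2.12 ± 1.08 CPM, the AMPA receptor subunit Gria2 203 ± 89.1 against 1.82 ± 1.26, and the GABA-A receptor subunit Gabrb1 145 ± 54.3 against 0.425 ± 0.483. Adra1a (28.9 against 0.449 CPM) and Adra2a (32.1 against 1.77 CPM) were higher in astrocytes. On the microglial side were Adrb1, an adrenergic receptor (53.1 ± 16.8 against 18.6 ± 9.45 CPM), and the histamine receptor Hrh2 (13.8 ± 2.35 against 0.177 ± 0.137 CPM).

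Csf1r, the receptor on which microglial survival depends, averaged 7108 ± 618 CPM in microglia and 2.39 ± 2.59 CPM in astrocytes. Csf3r, the granulocyte colony-stimulating factor receptor, averaged 581 ± 72.5 CPM in microglia with 1 count over all astrocyte libraries (ratio 26918, 4831 to 1063249). The receptors of transforming growth factor β, which maintains the microglial state, were tightly set across microglia: Tgfbr1 measured 1905, 1912, 1831, 2020 and 1963 CPM against 20.3 to 31.8 CPM (6.17 ± 0.19). Tgfbr2 measured 868, 848, 829, 854 and 852 CPM against 19.2 to 55.9 CPM (4.59 ± 0.30). The astrocytes held receptors for fibroblast growth factors, neurotrophins and epidermal growth factor-type ligands, with Fgfr3 at 855 ± 377 against 3.82 ± 2.29 CPM, Ntrk2 at 1146 ± 498 against 11.5 ± 5.16, and Egfr at 179 ± 75.6 against 4.21 ± 3.38. Fgfr2 was highest in astrocyte library 4, at 723 CPM of a mean of 409.5 ± 196, as were the oligodendrocyte markers. Igf1r did not pass the rule, with 54.1 to 78.8 CPM in microglia and 82.9 to 129 CPM in astrocytes (-0.60 ± 0.16).

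Pattern-recognition receptors were almost all on the microglial side, where all genes gave 28.1% higher in microglia and 33.9% in astrocytes. Of 10 Toll-like receptors tested 9 were higher in microglia and none in astrocytes, and Tlr7 and Tlr9, which detect nucleic acids in endosomes, stood at 231 ± 27.2 and 176 ± 29.6 CPM with 0.0601 ± 0.134 and 0.0200 ± 0.0448 CPM in astrocytes. The exception was Tlr3, the receptor for double-stranded RNA, at 64.8, 60.5, 71.4, 51.8 and 60.5 CPM in microglia and 155, 98.3, 102, 32.0 and 38.8 CPM in astrocytes, where the groups overlapped (-0.46 ± 0.36, adjusted p = 0.281). Trem2, a lipid-sensing phagocytic receptor, averaged 469.6 ± 30.1 against 0.136 ± 0.193 CPM, and Siglech, a sialic acid-binding lectin, 916 ± 90.4 against 0.416 ± 0.395. Fc receptors, which bind antibody, had 7 of 8 tested members higher in microglia.

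Receptors that clear apoptotic material were found in both cells, and their members leaned to different sides. Mertk, a receptor tyrosine kinase that binds Gas6 and Pros1, measured 913, 935, 989, 997 and 856 CPM in microglia and 435, 374, 408, 152 and 166 CPM in astrocytes (1.61 ± 0.29). Its relative Axl went the other way, at 53.6, 24.0, 49.4, 50.4 and 57.2 CPM against 292, 255, 273, 195 and 342 CPM (-2.54 ± 0.24). So did Tyro3 (0.545 against 129 CPM), whose astrocyte values were highest in library 4 at 318 CPM. Megf10, an engulfment receptor used by astrocytes, was the only called member of the phagocytic list higher in astrocytes, at 385, 232, 244, 304 and 177 CPM against 0.448 to 3.09 CPM (-7.60 ± 0.47). That list leaves out Axl and Tyro3, and without astrocyte library 4 it had 2 members higher in astrocytes and 33 in microglia.

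Complement receptors were near 0 in astrocytes. C5ar1 and C3ar1, the anaphylatoxin receptors, averaged 37.1 ± 6.36 and 238 ± 18.3 CPM, against 0.0269 ± 0.0601 and 0.124 ± 0.278 in astrocytes. Il10ra, which binds interleukin-10, averaged 686 ± 36.9 against 0.163 ± 0.236 CPM, and Ifngr1, the interferon-γ receptor, was higher in microglia over a clear astrocyte level, at 717 ± 37.4 against 46.2 ± 9.48 CPM (3.95 ± 0.18). On the astrocyte side of this list were Ackr3, a scavenging receptor for Cxcl12, at 15.6, 32.9, 32.1, 36.7 and 71 CPM, and Osmr, the oncostatin M receptor, at 13.2, 26.7, 25.7, 29.0 and 51.0 CPM. The astrocyte values of each were lowest in library 1 and highest in library 5, the order of the mural sum at its ends. The developmental receptors on the astrocyte side included Bmpr1b (155 ± 66.6 against 0.624 ± 0.499 CPM), Fzd2 (98.3 against 0.646 CPM) and the Hedgehog receptor Ptch1 (269 against 18.6 CPM). Notch1 was higher in astrocytes (602 ± 102 against 186 ± 9.48 CPM), and Notch2 passed in favour of microglia only narrowly (496 ± 26.9 against 314 ± 98.1 CPM, 0.66 ± 0.20) and was lost in 12 of the alternatives, both scalings named above among them.

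**Figure D3:**
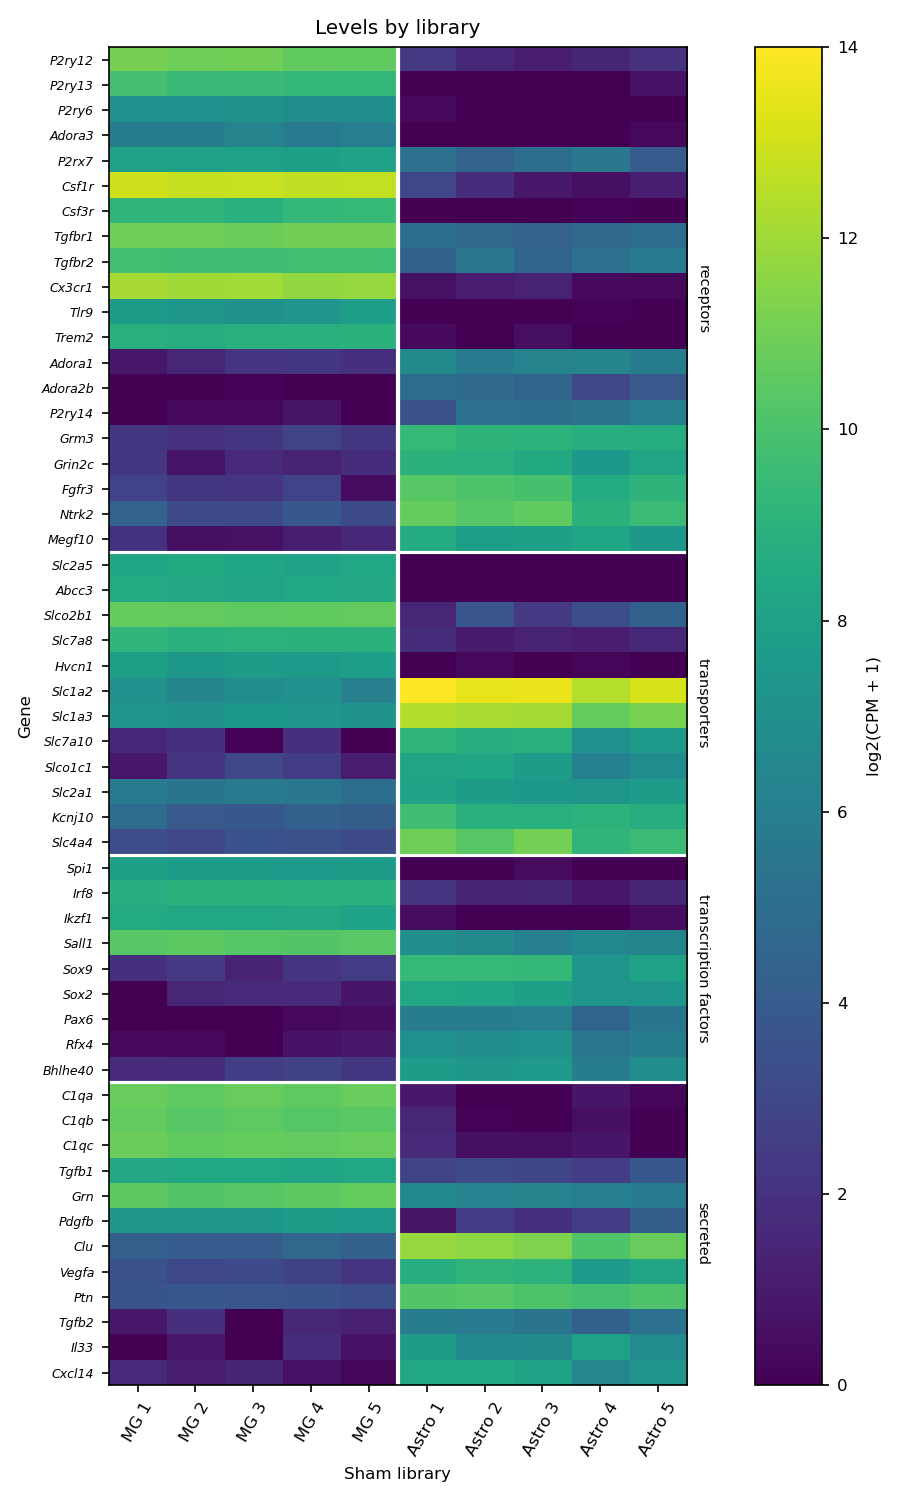
Level of receptors, transporters, transcription factors and secreted factors in each sham library, as log2(CPM + 1), microglia (MG) on the left and astrocytes (Astro) on the right. Within each role the upper genes are bright in the 5 microglia libraries and the lower genes in the 5 astrocyte libraries, and astrocyte libraries 4 and 5 are dimmer than libraries 1 to 3 for Slc4a4 and Sox9.

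Of 161 transporters tested 56 were higher in microglia (34.8%) and 75 in astrocytes (46.6%), where all genes gave 28.1% and 33.9%. Glutamate uptake belonged to astrocytes: Slc1a2 (GLT-1) measured 16397, 11913, 12285, 5552 and 9079 CPM against 67.1 to 135 CPM in microglia (-6.68 ± 0.38), and Slc1a3 (GLAST) averaged 3715 ± 1637 against 158 ± 14.6. The GABA carrier Slc6a11 stood at 1150 ± 763 CPM in astrocytes and 5.87 ± 4.19 in microglia, and the glycine carrier Slc6a9 at 149.5 ± 59.4 against 1.22 ± 0.465. In all, 16 of 31 amino acid transporters were higher in astrocytes (51.6%) and 9 in microglia (29.0%, near the share of all genes).

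The light chains that pair with Slc3a2 to form heteromeric amino acid exchangers were shared out. Slc7a8 (LAT2), which exchanges large and small neutral amino acids, was microglial at 598, 482, 525, 515 and 513 CPM against 1.01 to 2.55 CPM (8.35 ± 0.27, adjusted p = 5.13e-10). Slc7a7, which carries arginine and lysine, stood at 70.5 ± 8.45 against 1.14 ± 0.783 CPM. Slc7a10, a serine and alanine exchanger, and Slc7a11, the cystine-glutamate exchanger xCT, were astrocytic, at 354 ± 188 against 1.57 ± 1.44 and 314 ± 144 against 6.65 ± 2.56 CPM. Slc7a5 (LAT1) had the same mean, 72.9 CPM, in each cell type (-0.00 ± 0.19, 95% interval -0.42 to 0.42), and the heavy chain Slc3a2 did not pass (241 ± 23 against 261 ± 103 CPM, -0.12 ± 0.24).

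Sugar entry and the first step of glycolysis used different genes. Slc2a5 (GLUT5, a fructose carrier) measured 308, 363, 305, 267 and 335 CPM in microglia and no count in astrocytes, at least 5010-fold higher. Slc2a1 (GLUT1) measured 268, 216, 176, 172 and 211 CPM in astrocytes and 32.7 to 56.7 CPM in microglia (-2.15 ± 0.19). Per kilobase of exon, Slc2a5 exceeded Slc2a1 in microglia, 92.8 against 13.4 CPM per kb. Hexokinase followed the same split, with Hk2 at 491 ± 40.9 against 2.37 ± 1.04 CPM and Hk1 at 43.6 ± 5.59 against 145 ± 38.7 (-1.73 ± 0.19). Of the monocarboxylate carriers, Slc16a3 (MCT4) was microglial (34.6 ± 3.29 against 1.75 ± 1.87 CPM) and Slc16a1 (MCT1) astrocytic (22.3 ± 6.08 against 97.6 ± 20.3 CPM), while lactate dehydrogenase Ldha did not pass (60.8 against 63.2 CPM, -0.06 ± 0.22).

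Of 54 genes of ion and water transport 26 were higher in astrocytes (48.1%) and 21 in microglia (38.9%), against 33.9% and 28.1% of all genes. The bicarbonate carrier Slc4a4 averaged 1342 ± 695 against 8.97 ± 1.46 CPM. Kcnj10 (Kir4.1), a potassium channel, measured 840.0, 484, 464, 520.1 and 420.0 CPM against 13.6 to 28.8 CPM. Of 43 potassium channel genes tested 34 were higher in astrocytes and 7 in microglia, and the tandem pore channels split by gene, Kcnk6 at 232 ± 37.5 against 0.227 ± 0.441 CPM and Kcnk1 at 1.17 ± 1.03 against 239 ± 148. The microglial side held Hvcn1, the proton channel that sustains the phagocyte oxidase, at 234, 176, 216, 186 and 223 CPM against at most 0.252 CPM (10.77 ± 0.40).

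Among carriers of metals, nucleosides and organic anions the microglial side held Slc11a1, which moves iron and manganese out of phagosomes (182 ± 21.7 against 0.162 ± 0.210 CPM), and the iron exporter Slc40a1 (112 ± 12.9 against 10.7 ± 6.75 CPM). It also held Abcc3, a conjugate exporter with no count in astrocytes (340.1 ± 29.6 CPM, at least 5338-fold higher). Organic anion carriers split by gene. Slco2b1 measured 1638, 1572, 1471, 1521 and 1602 CPM in microglia and 1.88, 12.6, 4.02, 9.32 and 19.5 CPM in astrocytes (7.36 ± 0.56). Slco1c1, a thyroxine carrier, measured 0.900 to 6.80 CPM in microglia and 288, 317, 205, 70.4 and 111 CPM in astrocytes (-5.85 ± 0.59). Dio2, the deiodinase that activates thyroxine, lay with Slco1c1 on the astrocyte side, at 202 ± 94.8 against 1.06 ± 0.448 CPM, as did the thyroid hormone receptors Thra (216 ± 48.2 against 22.7 ± 6.01) and Thrb (40.0 ± 16.3 against 1.01 ± 0.756).

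In metabolism 89 of 158 tested genes were higher in astrocytes (56.3%) and 38 in microglia (24.1%), against 33.9% and 28.1% of all genes. The serine pathway from glucose was graded in the same direction at each step: Phgdh 254 ± 65.8 against 64.4 ± 8.16 CPM (-1.98 ± 0.19), Psat1 191 ± 47.2 against 14.3 ± 6.99 (-3.75 ± 0.35) and Psph 34.0 ± 10.6 against 5.88 ± 1.16 (-2.53 ± 0.26). Serine racemase Srr (24.4 ± 6.36 against 8.86 ± 1.53 CPM) and Gldc, of the glycine cleavage system (263, 266, 255, 102 and 132 CPM against 0.461 to 2.31 CPM), followed. The folate enzymes Shmt1, Shmt2 and Mthfd2 did not pass.

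Glutamate metabolism leaned to astrocytes. Glul, which makes glutamine, measured 4038, 3048, 2436, 1953 and 1889 CPM in astrocytes and 711, 728, 822, 692 and 691 CPM in microglia (-1.87 ± 0.22). Glud1 (642 against 134 CPM) and the GABA-degrading enzymes Abat (237 against 4.88 CPM) and Aldh5a1 (93.7 against 4.71 CPM) were higher in astrocytes. The transsulfuration enzyme Cbs averaged 116 ± 45.8 CPM in astrocytes and 0.650 ± 0.567 in microglia. Cth, the next step to cysteine, measured 23.5, 20.5, 24.5, 5.91 and 11.7 CPM in astrocytes and no count in microglia, at least 249.9-fold lower. Glutathione synthesis was not split in this way, since the catalytic subunit Gclc was slightly higher in microglia (52.8 ± 2.96 against 32.4 ± 4.10 CPM, 0.70 ± 0.13) and lost its call in 5 alternatives, RLE scaling and DESeq2 among them. The modifier Gclm was higher in astrocytes (11.7 ± 2.23 against 51.9 ± 12 CPM, -2.14 ± 0.20).

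Eicosanoids, the signalling lipids made from arachidonic acid, were divided only in part by branch. Of 25 tested genes 10 (40%) were higher in each cell type, against 28.1% and 33.9% of all genes. The microglial side held a route to prostaglandin D2 and thromboxane. Ptgs1 (COX-1) measured 647, 562, 561, 663 and 635 CPM against 5.21 to 21.9 CPM (5.77 ± 0.43). Hpgds, the haematopoietic prostaglandin D synthase, measured 355, 355, 329, 368 and 312 CPM against at most 0.249 CPM (11.76 ± 0.41). Tbxas1, thromboxane synthase, averaged 254 ± 20.4 against 1.22 ± 0.823 CPM. It also held the leukotriene enzymes Alox5 (36.9 ± 7.84 against 0.156 ± 0.173 CPM), its activating protein Alox5ap (68.6 CPM, with 3 counts over the astrocytes) and Ltc4s (68.5 CPM, also 3 counts), and Hpgd, which inactivates prostaglandins (255 ± 23.1 against 1.30 ± 1.06 CPM). Ptgs2 (COX-2) was low in both and did not pass (1.62 ± 1.32 against 0.609 ± 0.868 CPM).

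The astrocyte libraries held mostly enzymes of other branches, but also Ptgds, a second prostaglandin D synthase. Ptges, the inducible prostaglandin E synthase, measured 16.1, 11.2, 10.6, 9.02 and 16.4 CPM against 0 to 1.29 CPM (-4.58 ± 0.54). The cytochromes Cyp4f15 (78.3 CPM, with 1 count over the microglia), Cyp4f14 (34.7 ± 15.7 against 0.170 ± 0.187) and Cyp2j9 (141 ± 62.5 against 1.16 ± 0.754) and the epoxide hydrolase Ephx2 (94.6 ± 44.9 against 0.979 ± 0.741) were all over 8-fold higher there. Ptgds, the lipocalin-type prostaglandin D synthase, measured 481, 191, 90.1, 755 and 321 CPM in astrocyte libraries 1 to 5, the rank order of the oligodendrocyte marker sum. Pla2g7, which inactivates platelet-activating factor, was astrocytic at 974 ± 492 against 17.8 ± 12.6 CPM.

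Genes of extracellular ATP breakdown and adenosine handling were divided between the cell types member by member. Entpd1 (CD39), which takes ATP to AMP, measured 839.6, 818, 745, 698 and 686 CPM in microglia and 3.21 to 19.2 CPM in astrocytes (5.82 ± 0.40). Entpd2, which favours ATP, averaged 48.7 ± 25.9 CPM in astrocytes and 0.152 ± 0.279 in microglia (-8.31 ± 0.71). Nt5e (CD73), which turns AMP into adenosine, was low, at 6.04, 1.26, 3.51, 12.1 and 4.10 CPM in astrocytes, highest in library 4, and 0 to 0.772 CPM in microglia. The phosphatase Alpl, which can do the same step, was astrocytic (42.7 ± 22.8 against 1.84 ± 1.20 CPM). Adk, which clears adenosine inside the cell, was higher in astrocytes (106, 109.8, 112, 63.8 and 62.8 CPM against 3.73 to 6.42 CPM). Pnp and Hprt, of the salvage route through inosine, were higher in microglia (120.5 against 43.6 CPM and 46.1 against 10.9 CPM). The nucleoside carriers Slc29a1 and Slc29a3 were higher in microglia, at 65.8 ± 13.1 against 9.82 ± 3.51 and 479 ± 49.3 against 53.1 ± 24.0 CPM, and Ada did not pass (1.95 against 0.803 CPM).

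**Figure D4:**
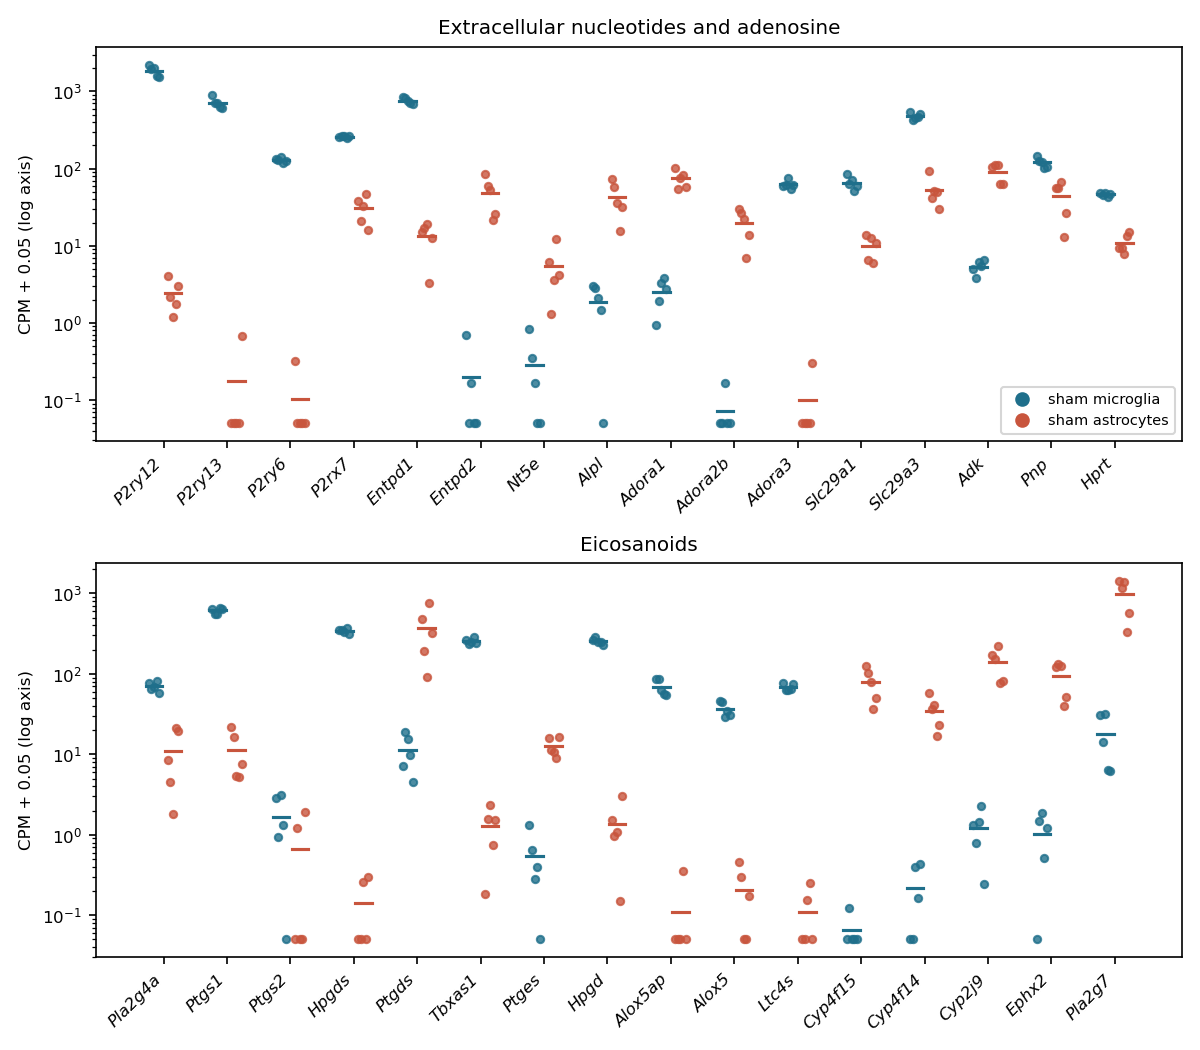
Levels of genes of extracellular nucleotide signalling (top) and eicosanoid metabolism (bottom) in the 5 sham microglia (blue) and 5 sham astrocyte (red) libraries, as CPM + 0.05 on a log axis; points are libraries and bars their means. Entpd1 is microglial and Entpd2 astrocytic, and Ptgs1, Hpgds and Tbxas1 are microglial where Ptges, Cyp4f15 and Ephx2 are astrocytic.

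Fatty acid oxidation, ketone and creatine genes were higher in astrocytes in 21 of 32 cases (65.6%) and in microglia in 3 (9.38%). Of all genes 33.9% were higher in astrocytes and 28.1% in microglia, and these shares apply to each list of this paragraph. Cpt1a, which admits fatty acids to mitochondria, averaged 153 ± 54.5 against 41.4 ± 5.92 CPM. The acyl-CoA synthetases Acsl3 (975 ± 463 against 9.87 ± 3.34 CPM) and Acsl6 (1064 ± 514 against 5.23 ± 1.84) were astrocytic and Acsl5 (5.63 ± 3.17 against 79 ± 4.65) microglial. Of the hormone and vitamin enzymes 13 of 19 were higher in astrocytes, among them Cyp7b1, an oxysterol hydroxylase (31.9 ± 18.1 against 0.0854 ± 0.131 CPM). The phagocyte oxidase list went to microglia in 12 of 14 cases, with Ncf1 at 513, 469.6, 518, 489 and 458 CPM against at most 0.537 CPM. Its members higher in astrocytes were Ass1, which makes argininosuccinate (19.8 ± 7.30 against 0.417 ± 0.0685 CPM), and the endothelial nitric oxide synthase Nos3, at 0.940, 14.1, 4.54, 8.11 and 15.4 CPM, the rank order of the endothelial marker sum. The oxidase subunit Cybb was low and uneven, at 28.9, 24.3 and 28.2 CPM in microglia libraries 1 to 3 and 2.44 and 6.62 CPM in libraries 4 and 5, the split of the border macrophage markers.

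Gene families of basic cell function were also compared, where all genes gave 28.1% higher in microglia and 33.9% in astrocytes. Of 73 ribosomal protein genes tested 72 were higher in microglia and none in astrocytes, with a median log2 fold change of 1.36 and none beyond 8-fold, and the microglial count ran from 67 to 72 over the alternatives. Reads of ribosomal protein genes are shared with processed pseudogenes, so single members are uncertain. Of 37 subunits of NADH dehydrogenase 31 were higher in astrocytes and none in microglia (median -1.02, 1 of them over 8-fold), a count that fell to 17 when only the 2 mice with both libraries were fitted. Proteasome subunits were mostly uncalled, 33 of 38, with the 95% interval inside 0.6 either way for 14, and 2 were over 8-fold higher in microglia. Protocadherins had 26 of 27 tested members higher in astrocytes, although members of their clusters share exons and their counts cannot be told apart.

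Transcription factors were divided by lineage. Of 35 myeloid factors tested 32 were higher in microglia and 2 in astrocytes. Of 49 neural and astrocyte factors 45 were higher in astrocytes and 2 in microglia. All genes gave 28.1% higher in microglia and 33.9% in astrocytes. The neural and astrocyte list also holds Mlc1, a membrane protein, and without it the astrocyte count is 44 of 48. The 2 of that list on the microglial side lay near the threshold. Tsc22d4 (213 against 139 CPM) lost its call in 17 of the alternatives and Etv5 (178 ± 30.7 against 98.0 CPM) in 3. The fit without microglia libraries 1 to 3 was among them for both. The myeloid-list factors higher in astrocytes were Bhlhe40, a repressor also tied to the clock (148 against 3.83 CPM, -5.28 ± 0.39), and Bcl6 (55.1 ± 16.6 against 23.1 ± 6.07 CPM). Spi1 (PU.1), which is required for the macrophage lineage, measured 247, 207, 195, 183 and 196 CPM in microglia and 0, 0, 0.310, 0 and 0 CPM in astrocytes (11.37 ± 0.45, adjusted p = 1.32e-09). Irf8 averaged 487 ± 23.4 against 1.85 ± 0.909 CPM, Ikzf1 331 ± 34.6 against 0.155 ± 0.213 and Runx1 202 ± 13.5 against 1.52 ± 1.03. Mef2a and Mef2c, which are also expressed by neurons and vessels, were microglial over a measurable astrocyte level (725 against 69.8 CPM and 497 against 35.1 CPM).

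Sall1, a zinc finger factor that sets microglia apart from other macrophages, measured 1334, 1396, 1285, 1201 and 1385 CPM in microglia, and the astrocytes held it at 120.5, 95.3, 68.5, 91.2 and 78.7 CPM (3.86 ± 0.18). Its relative Sall3 followed (249 ± 19.7 against 59.6 ± 24.5 CPM) and Sall2 went the other way (43.8 ± 6.47 against 131 ± 60.1 CPM, -1.58 ± 0.31). The astrocyte factors included Sox9 (672, 669, 645, 164 and 267 CPM against 1.5 to 4.48 CPM), Sox2 (236 ± 76.3 against 1.43 ± 1.00), Pax6 (49.7 ± 18.2 against 0.124 ± 0.179) and Rfx4 (93.3 ± 39.7 against 0.407 ± 0.378). The forebrain factors Lhx2 and Emx2 followed (101 against 0.663 CPM and 40.1 against 0.597 CPM). Of 15 Sox genes 14 were higher in astrocytes (93.3%, against 33.9% of all genes), and the exception was Sox4 (158 ± 17.0 against 27.2 ± 4.69 CPM). Sox10 and Olig2, factors of the oligodendrocyte lineage, were highest in astrocyte library 4 at 352 and 94.7 CPM. Nuclear receptors were higher in astrocytes in 18 of 31 cases (58.1%) and in microglia in 4 (12.9%), against 33.9% and 28.1% of all genes. Nr1d1, a clock repressor, stood at 170.1 ± 71.8 against 7.97 ± 2.82 CPM and Ppara at 14.7 ± 6.5 against 0.224 ± 0.278. The glucocorticoid receptor Nr3c1 did not pass (247 ± 21.2 against 191 ± 19.9 CPM, 0.38 ± 0.13).

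Promoter windows of 300 bases (250 before and 50 after the start, RefSeq on GRCm38.p6) were searched on both strands for letters bound by some of these factors. Windows were matched for 638 of the 938 genes over 8-fold higher in microglia, 1597 of those over 8-fold higher in astrocytes and 9724 of all genes tested. The PU.1 letters GAGGAAGT were present in 10.8% of the microglial windows, 1.5% of the astrocytic, 3.03% of all tested and 3.28% of all 27025 promoters. The AP-1 letters TGANTCA stood at 8.31%, 6.07%, 4.75% and 7.93% and the SOX letters ACAATGG at 1.41%, 2.32%, 1.87% and 3.71%, in the same order. The RFX letters GTTGCCAT were present in 0.470%, 1.57%, 1.13% and 1.32%, and the CEBP letters TTGCGCAA in 0 microglial windows, 0.188%, 0.288% and 0.185%. The windows differed in base composition, with a median GC content of 56.5% in the microglial, 62% in the astrocytic and 61.3% in all tested windows. A match is a run of letters and not a bound site.

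The 250 bases before the start of 4 genes are printed 5′ to 3′ on the gene's strand, because they carry the PU.1 letters close to the start (in capitals, GAGGAAGT or its reverse complement ACTTCCTC) in genes at the extreme of the microglial side. They are the named genes of smallest p with such a match before the start. Cd37, a tetraspanin of leukocytes (chr7:45238840-45239089, minus strand), was found at 194 CPM against 1 count over the astrocytes, and its match ends 17 bases before the start. The match of Hpgds (chr6:65144731-65144980, minus strand) ends 41 bases before, that of Adora3 (chr3:105904171-105904420, plus strand) 22 bases before, and that of Vav1 (chr17:57278850-57279099, plus strand) 3 bases before. Vav1, a haematopoietic exchange factor, averaged 520.3 ± 44.0 CPM in microglia with no count in astrocytes, at least 8295-fold higher.
Cd37: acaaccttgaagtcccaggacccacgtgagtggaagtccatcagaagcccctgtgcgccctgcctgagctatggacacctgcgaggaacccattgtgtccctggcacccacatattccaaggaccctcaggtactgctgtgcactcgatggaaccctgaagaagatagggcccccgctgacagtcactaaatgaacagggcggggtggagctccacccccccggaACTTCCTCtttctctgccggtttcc
Hpgds: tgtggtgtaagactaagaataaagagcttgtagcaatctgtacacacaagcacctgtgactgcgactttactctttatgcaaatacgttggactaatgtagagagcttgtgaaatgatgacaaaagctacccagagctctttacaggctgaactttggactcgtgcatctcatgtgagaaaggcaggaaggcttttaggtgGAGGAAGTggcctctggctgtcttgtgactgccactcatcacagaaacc
Adora3: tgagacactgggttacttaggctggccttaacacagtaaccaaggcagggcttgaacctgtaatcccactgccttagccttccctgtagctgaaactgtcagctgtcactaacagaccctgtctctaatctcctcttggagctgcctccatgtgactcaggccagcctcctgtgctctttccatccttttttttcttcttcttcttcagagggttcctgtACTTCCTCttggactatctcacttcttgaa
Vav1: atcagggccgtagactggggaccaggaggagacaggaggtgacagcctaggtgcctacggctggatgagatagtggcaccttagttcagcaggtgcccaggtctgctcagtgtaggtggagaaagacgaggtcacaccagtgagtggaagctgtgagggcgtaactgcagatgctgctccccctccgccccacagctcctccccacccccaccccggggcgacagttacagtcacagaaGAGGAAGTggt

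Secreted factors leaned to astrocytes, with 97 of 151 tested higher there (64.2%) and 42 in microglia (27.8%), against 33.9% and 28.1% of all genes. The exceptions were cytokines and chemokines, with 18 of 27 higher in microglia and 8 in astrocytes. That list also holds Aif1, a cytoplasmic actin-binding protein, and 3 galectins, and without these 4 the counts are 16 and 7 of 23. Il1a measured 55.7, 76.9, 77.6, 72.7 and 55.7 CPM in microglia and no count in astrocytes (at least 1096-fold higher). Il1b (6.58 ± 2.38 CPM, at least 110.4-fold), Ccl6 (66.6 ± 14.1 CPM, at least 1005-fold) and Osm (14.7 ± 1.56 CPM, at least 234-fold) were likewise without a count in astrocytes. The astrocytes held Il33, an alarmin (194, 92.7, 97.0, 258 and 108 CPM against 0 to 2.56 CPM, highest in library 4), Il18 (34.0 ± 8.53 against 10.9 ± 3.15 CPM) and the chemokine Cxcl14 (235 ± 109 against 1.20 ± 0.854 CPM).

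The complement starter C1q was microglial in all 3 chains. C1qa measured 1703, 1449, 1734, 1455 and 1744 CPM against at most 0.940 CPM (12.13 ± 0.62). C1qb and C1qc averaged 1403 ± 122 and 1673 ± 145 CPM. C4b was higher in astrocytes (119 ± 31.0 against 43.9 ± 18.7 CPM), and C3 did not pass (5.33 ± 3.53 against 3.78 ± 2.31 CPM). Clu, a chaperone and lipoprotein constituent, measured 3668, 3155, 2551, 1146 and 1748 CPM in astrocytes and 15.8 to 25.9 CPM in microglia (-7.03 ± 0.37). Apoe was higher in astrocytes (11188, 9794, 8425, 4348 and 5688 CPM) over a large and uneven microglial level, 1895, 1320 and 2225 CPM in libraries 1 to 3 and 512 and 481 CPM in libraries 4 and 5 (-2.62 ± 0.46), the split that the border macrophage markers showed.

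Synaptogenic, matrix and guidance factors were higher in astrocytes in 47 of 52 cases (90.4%) and in microglia in 4 (7.69%). Of all genes 33.9% and 28.1% were, and these shares apply to the growth factors below as well. Sparcl1 (hevin), which promotes synapse formation, measured 8032, 6887, 7210, 2509 and 3973 CPM in astrocytes and 31.3 to 89.9 CPM in microglia (-6.74 ± 0.45). Its relative Sparc, which opposes it, measured 2023, 1905, 2015, 1688 and 1896 CPM in microglia and 436, 339, 449.7, 216 and 399 CPM in astrocytes (2.37 ± 0.21). Olfml3, a secreted olfactomedin-domain protein, was microglial at 1727 ± 133 against 7.04 ± 3.68 CPM. Thrombospondins split as well, Thbs1 to microglia (25.7 ± 5.05 against 3.74 ± 3.29 CPM) and Thbs4 to astrocytes (0.332 ± 0.407 against 56.5 ± 5.01). Gpc4 and Gpc6, glypicans that recruit AMPA receptors, and Chrdl1, which matures synapses, were all over 8-fold higher in astrocytes, at 27.3, 94.6 and 51.9 CPM against 0.355, 0.253 and 0.254 CPM. Growth factors were higher in astrocytes in 23 of 37 cases, with Ptn at 1243, 1325, 1090, 906 and 1097 CPM against 9.34 to 13 CPM (-6.64 ± 0.19) and Vegfa at 398 ± 157 against 6.77 ± 2.43. The microglial growth factors included Grn (progranulin, 1414 ± 177 against 72.2 ± 14.4 CPM) and Igf1, which was low and uneven (9, 7.76, 7.26, 1.51 and 1.36 CPM).

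Of 64 ligand-receptor pairs listed, 56 had both genes tested. In 11 the ligand was higher in astrocytes and the receptor in microglia, in 9 the reverse, in 14 both were higher in astrocytes and in 12 both in microglia. Of all genes tested 33.9% were called higher in astrocytes and 28.1% in microglia, so the counts only describe the list. The 11 include Jag1 with Notch2, whose call was lost in 12 of the alternatives. The astrocyte-to-microglia pairs included the ligands of Csf1r. Il34 measured 3.09, 19.4, 12.8, 23.8 and 30.8 CPM in astrocytes and at most 1.51 CPM in microglia (-5.56 ± 0.87), with the lowest and highest values in libraries 1 and 5 like the mural sum. Csf1 measured 106, 54.5, 70.2, 113 and 89.3 CPM against 38.6, 34.0, 45.7, 54.9 and 64.0 CPM (-0.87 ± 0.23), where the groups overlapped and the call was lost without microglia libraries 1 to 3. Cx3cl1 (12.2 ± 4.92 against 1.15 ± 0.895 CPM) faced Cx3cr1. Cd200 (8.27 ± 2.89 against 0.204 ± 0.302 CPM) faced Cd200r1, which had no count in astrocytes (15.3 ± 3.12 CPM, at least 234-fold higher). Il33 faced Il1rl1 (16.0 ± 4.4 CPM, at least 249-fold higher).

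The microglia-to-astrocyte pairs included Osm and Osmr (0.723 ± 0.474 against 29.1 ± 13.7 CPM), and Il1a and Il1b with Il1r1 (1.89 ± 1.5 against 13.1 ± 6.37 CPM). They also held Gas6 (136 ± 20.6 against 48.6 ± 14.9 CPM) with Axl and Psap (1958 ± 168 against 907 ± 201 CPM) with Gpr37l1 (4.37 ± 3.37 against 809 ± 455 CPM). Pdgfb measured 168, 170.4, 166, 200.4 and 182 CPM in microglia and 0.672, 4.80, 2.89, 4.51 and 16.2 CPM in astrocytes (4.94 ± 0.57). Its receptor Pdgfrb measured 371, 546, 472, 556 and 1021 CPM in the astrocyte libraries, and is itself a mural cell marker. Transforming growth factor β was divided by isoform, Tgfb1 at 329 ± 21.2 CPM in microglia against 7.88 ± 3.34 (5.39 ± 0.27), and Tgfb2 and Tgfb3 at 41.5 ± 14.4 and 10.4 ± 4.43 CPM in astrocytes against 1.39 ± 1.06 and 0.308 ± 0.305. Per kilobase of exon, Tgfb1 in microglia (65.3 CPM per kb) exceeded Tgfb2 in astrocytes (7.17).

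Genes of one family or role were paired, with the member known from blood cells or microglia first. The pairing was broad in places: Gpr34 and Gpr37l1 were matched only as G protein-coupled receptors named Gpr. In 27 pairs the first was called higher in microglia and the second in astrocytes, 13 of the 23 tested pairs of haematopoietic signalling and cytoskeletal genes and 14 of the 34 other tested pairs, and no pair was called the other way round. Examples were the exchange factors Dock2 (947 ± 117 against 0.134 CPM) and Dock1 (176 ± 17.0 against 393 ± 85.4), the actin-nucleation subunits Nckap1l (758 ± 42.4 against 0.339 ± 0.515) and Nckap1 (5.34 ± 1.62 against 212 ± 18.8), and the plastins Lcp1 (575 ± 62.8 against 2.86 ± 3.00) and Pls3 (17.5 ± 1.68 against 69.6 ± 7.66). The inhibitory G protein subunits split unevenly, since Gnai2 was only somewhat higher in microglia (642 ± 49.5 against 342 ± 64.3 CPM, 0.91 ± 0.15). Gnai1 was found at 84.2, 39.0, 20.1, 186 and 68.9 CPM in astrocytes, in the order of the oligodendrocyte markers, against 0.601 ± 0.462 in microglia. The pairs were listed with earlier results of these data known, so the counts describe the list.

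**Figure D5:**
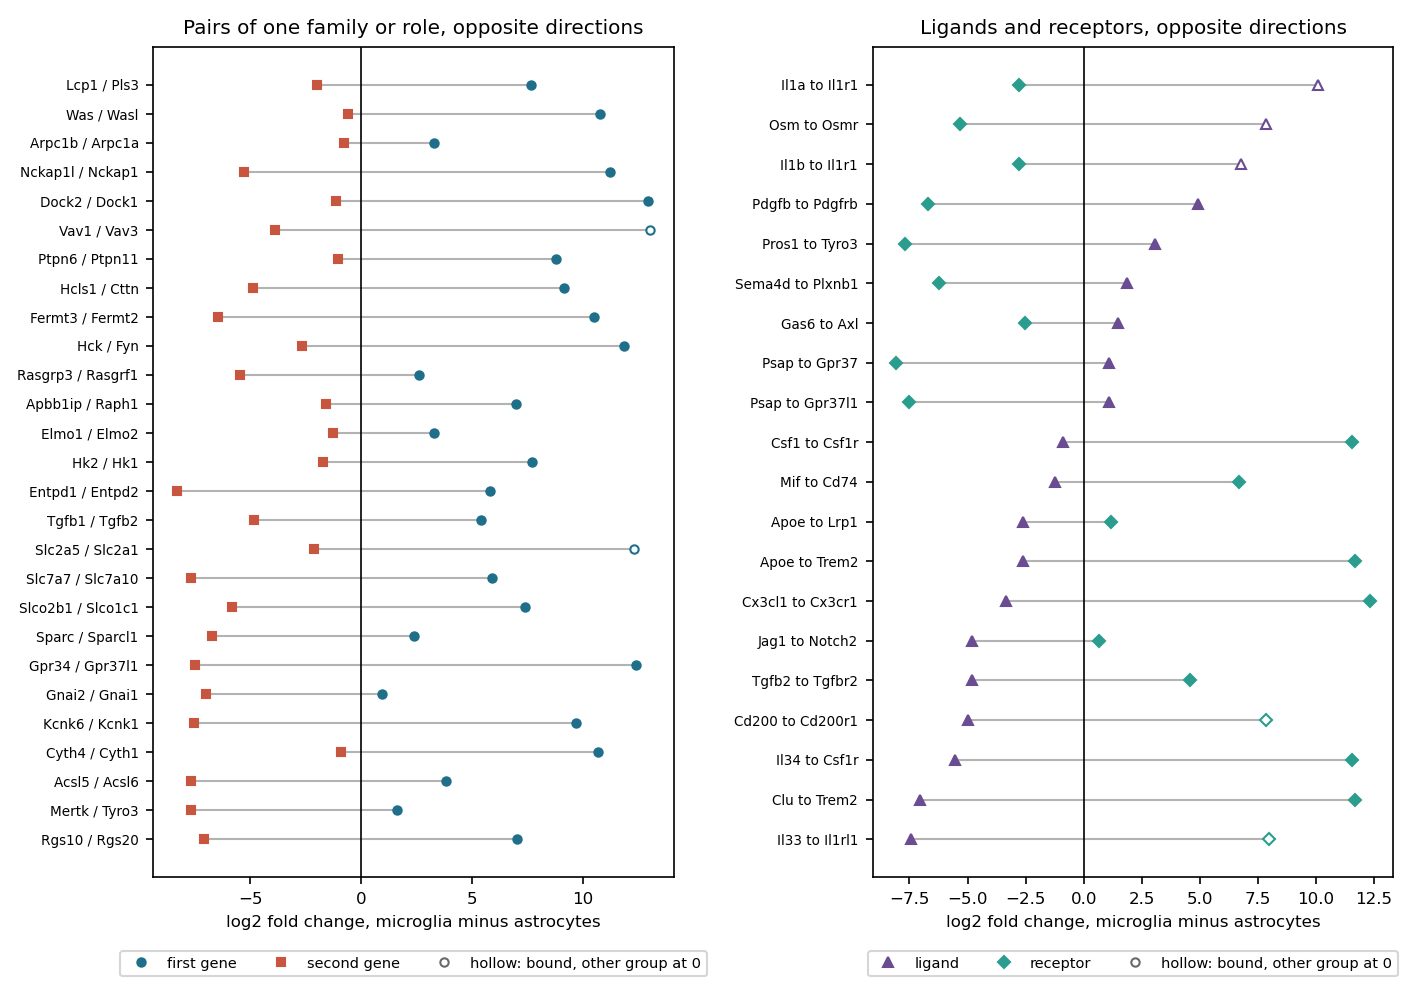
Log2 fold change (microglia minus astrocytes) of the 27 pairs of one family or role (left, first gene as circle, second as square) and of the 20 ligand-receptor pairs (right, ligand as triangle, receptor as diamond) whose members were called in opposite directions. Hollow marks are bounds for genes with no count in astrocytes. The widest distances are those of Gpr34 with Gpr37l1 on the left and of Clu with Trem2 on the right. Gpr34 and Gpr37l1 were matched only as G protein-coupled receptors named Gpr.

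Immediate early and heat shock genes respond to tissue dissociation as well as to signals in the tissue. They were higher in microglia in 21 of 24 cases (87.5%), against 28.1% of all genes. Jun measured 1605, 2201, 1672, 1298 and 1291 CPM against 77.3 to 143 CPM (3.75 ± 0.23) and Fos 328, 443, 359, 159 and 115 CPM against 20.3 to 44.3 CPM (3.28 ± 0.38), with libraries 4 and 5 lowest among the microglia. The single gene of this list higher in astrocytes was Hsp90aa1 (498 ± 145 against 214 ± 28.8 CPM). How far the handling of the cells contributes to these values, and to cytokines such as Il1a that share the list's direction, was not tested.

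The 10 FPI libraries, which the sham fit did not use, gave the same contrast in other mice, with 7929 of 13569 genes called (58.4%). Of the genes called higher in sham microglia 3061 (79.6%) were called in the same direction there and none in the opposite one, and of those called higher in sham astrocytes 3925 (84.8%) were. Psmg4, a proteasome assembly factor chosen here for this alone, was called in opposite directions (4.41 CPM in sham microglia against 8.10 in sham astrocytes, adjusted p = 0.0962). Of the genes over 8-fold apart in sham, 861 of 938 (91.8%) and 2098 of 2276 (92.2%) were called in the same direction. FPI astrocyte library 5 carries a microglia suffix in its name and shares its animal number with library 2 of that group, so by the names the 5 libraries came from 4 mice. Without it the last counts were 899 (95.8%) and 2116 (93%).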

How the data were processed

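Total RNA of sorted cells was made into libraries with the SMARTer Stranded Total RNA-Seq Pico v2 kit and sequenced on a NovaSeq. Per the submitters' processing notes, reads were handled with bcl2fastq, HISAT2 2.1.0 and featureCounts on mm10/GRCm38.p6, and the authors deposited whole-number counts per gene and library, not normalized. The strand setting and the handling of reads shared between genes are not given in the sources used here, so overlapping, antisense and near-identical genes are uncertain.

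From the deposited counts, edgeR 4.0.16 (R 4.3.3) was fitted to the 5 sham microglia and 5 sham astrocyte libraries with filterByExpr, TMM factors and the quasi-likelihood test, with Benjamini-Hochberg adjustment over 13659 genes. The SE is the absolute log2 fold change divided by the square root of F. Fold changes of single genes were read as ratios or bounds where a group held 3 counts or fewer. Levels per kilobase used the union of exons of GENCODE M21. Library-wide values were compared with exact two-sided permutation tests (scipy 1.17.1), adjusted over 4 values. The scripts were tested on simulated data. P-values measure the spread between these libraries. Alternatives were DESeq2 1.42.0, limma 3.58.1 voom, other scalings, filters and thresholds, blocks and left-out libraries.

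The comparison, gene lists and pairs were chosen with earlier results of these data known. Of 1006 listed symbols 1 was not matched. Named genes were, for each list, the 3 called genes of smallest p in each direction, called members against the list's majority (up to 5), successive steps of a pathway, pairs called in opposite directions, and the 10 genes of smallest p in each direction outside all lists (283 genes in all). Further list members named in the text were chosen after their values were seen. Depth was 5623349 to 13110857 counts per library. Some genes of these lists are counted in the lists but not reported here.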

Additional observations from a re-analysis of the deposited data

Results flagged for a closer look

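In 25 of 490 groups of 5 libraries a single library stood apart from the other 4 by more than Dixon's 95% limit (0.71 of the range), and chance alone flags about 1 group in 20. In astrocyte library 4, where the oligodendrocyte markers were highest, Il1rap (210.2 CPM, others 16.4 to 68.1), Sema4d (185, others 73.2 to 104) and Hsp90aa1 (752, others 397 to 479) were high, and Plxnb2 (150.1, others 201 to 220.2) and Dock8 (2.50, others 4.43 to 5.06) were low. In astrocyte library 5, where the mural markers were highest, Pdgfrb (1021, others 371 to 556), Pdgfb (16.2, others 0.672 to 4.80), Gfap (401, others 146 to 200.2), Zfp36 (23.6, others 5.99 to 10.3) and the erythroid marker sum (34.3, others 1.68 to 9.27) were high. The part of these other cells in the values was not tested. Astrocyte library 1 was high in Kcnj10 (840.0, others 420.0 to 520.1), Slc38a7 (27.1, others 10.9 to 15) and Elf4 (1.88, others 1.10 to 1.18), and library 3 in Slc16a6 (27.7, others 4.21 to 10.2).

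Among microglia, library 5 was low in Ptpn11 (49.4 CPM, others 67.8 to 72.3), and also in genes of the astrocyte side, Gja1 (6.23, others 13.1 to 14.7), Fermt2 (0.973, others 4.89 to 6.27), Gpr37 (0.195, others 1.84 to 2.06) and Limch1 (1.95, others 3.34 to 3.84). Library 4 was high in Grm3 (6.28, others 2.98 to 3.86), Slc36a1 (199, others 125 to 139) and Clu (25.9, others 15.8 to 18.3), library 1 in Slc9a9 (307, others 247 to 263) and the mural marker sum (44.9, others 19.9 to 24.2), and library 2 was low in Axl (24.0, others 49.4 to 57.2).

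The difference between the cell types itself differed between FPI and sham mice for 30 of 15077 genes tested, 10 of them genes named here (edgeR interaction term, adjusted p below 0.1). The test took all 20 libraries as separate, although by the names FPI astrocyte libraries 2 and 5 share a mouse. The log2 fold change was smaller after FPI for Cx3cr1 (by -3.66, adjusted p = 0.00518), C1qa (-4.59, 0.0214), C1qb (-3.63, 0.068), Cd33 (-3.81, 0.0324), Abcc3 (-6.58, 0.0324), Dock2 (-3.90, 0.0235), Cyth4 (-2.28, 0.0896), Parvg (-3.65, 0.087) and the sort antigen Itgam (-3.58, 0.0896), all of them microglial genes. In the FPI astrocyte libraries Cx3cr1 measured 10, 11.7, 2.86, 3.17 and 11.3 CPM, against 0.249 to 1.55 CPM in sham astrocytes, and 2136 to 3788 CPM in FPI microglia. Axl moved the other way (2.48, adjusted p = 0.00286), at 365, 240, 244, 177 and 225 CPM in FPI microglia against 24.0 to 57.2 CPM in sham microglia. Without FPI astrocyte library 5, an alternative added after the values had been seen, 24 of 15369 genes passed, 23 of them among the 30, and Cx3cr1 (-3.51, adjusted p = 0.0149), C1qa, Cd33, Abcc3, Dock2 and Axl stayed below 0.1. C1qb (0.121), Cyth4 (0.142), Parvg (0.169) and Itgam (0.156) did not.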

How the results depend on the processing

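The counts of called genes over all genes stayed within 1.5 times of their values under every alternative but the filter of at least 10 counts in every library, which removes genes near 0 in a cell type: of 9445 genes then tested 4974 were called, 2312 higher in microglia and 2662 in astrocytes, with 239 and 377 over 8-fold higher. DESeq2, testing 22913 genes, called 10586 (4072 and 6514, with 1223 and 3250 over 8-fold), and RLE factors gave 3456 and 4948 in place of 3844 and 4631. Leaving out each library in turn gave 8471 to 8821 calls, 3586 to 3927 higher in microglia and 4612 to 5073 in astrocytes, with 932 to 1057 and 2248 to 2546 over 8-fold. The difference in the share of counts on the 100 top genes ran from -6.72 to -4.35 percentage points over the left-out libraries, and its adjusted exact permutation p rose to as much as 0.0794. By the library names, equal sample numbers did not mark the same mouse. Deviations from the group means correlated at 0.009 to 0.104 between same-numbered libraries. They correlated at 0.001 and -0.005 in the 2 pairs named as 1 mouse, and at -0.086 to 0.062 in the other pairs. The correlation did not set apart the pairs of 1 mouse, so it cannot show which libraries share one. With the replicate block 8378 genes were called, 3827 and 4551 by direction. Counts within lists moved more: 217 values lay beyond 1.5 times and 3839 within, 90 of the former under the filter of at least 10 counts, 19 with at least 1 count, 12 with DESeq2 and 10 with the 2 mice. Cytokines and chemokines higher in microglia ran from 2 to 28 and potassium channels higher in astrocytes from 3 to 53, both ends set by the filters. Of the 283 named genes, Cyp27a1 changed sign in the fit of the 2 mice with both libraries, where the cause was not tested. Its value there, -0.10, was not a call (edgeR adjusted p = 0.828). Cyp27a1 went uncalled in 16 of the alternatives, DESeq2 and RLE factors among them. Over all settings 7134 values of named genes kept their call and 72 lost it. A named gene that an alternative did not test is in neither count. The filter of at least 10 counts in every library tested only 132 of the 283. Depth limits genes near 0: a gene with no count in a group is known only to lie below about 0.07 CPM.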

Other observations

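Among the 938 genes over 8-fold higher in microglia, 11 (1.17%) had each of libraries 1 to 3 more than 2-fold above libraries 4 and 5, and 2 (0.213%) had the reverse. The 11 held the antigen presentation genes Cd74 (75.4, 72.5, 125, 21.3 and 25.3 CPM), H2-Aa (21.1, 16.1, 51.2, 2.79 and 3.11 CPM), H2-Ab1 and H2-Eb1, the border macrophage markers Mrc1 (276, 186, 278, 20.2 and 11.5 CPM) and F13a1, the lysozyme gene Lyz2, the oxidase subunit Cybb, the immediate early genes Fos and Atf3, and Fam71a. Of the 2276 genes over 8-fold higher in astrocytes, 1006 (44.2%) were lowest in library 4 and 495 (21.7%) highest there.

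Zinc finger genes named Zfp, mostly DNA-binding factors of the nucleus, were among the families with no clear side. Of 316 tested 175 were not called with TMM factors. The calls were 80 higher in microglia (25.3%) and 61 in astrocytes (19.3%), against 28.1% and 33.9% of all genes. The microglial share was thus near that of all genes and the astrocyte share below it. The majority of the calls turned with RLE factors, to 63 and 71. DESeq2, which also changes the test and the genes tested, gave 67 and 84.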
